A study of Mus musculus with 12 samples.

Results

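The light chain constant genes and Jchain were followed in CH12F3-2A cells, a B lymphoma line from mouse whose cells make IgM and, when stimulated, switch to IgA. The group has 5 genes of the 56941 in the table, taken by name: Igkc, which encodes the constant region of the κ light chain, Iglc1, Iglc2 and Iglc3, which encode those of λ light chains, and Jchain, which encodes the joining chain of polymeric IgM and IgA. All 5 passed the filter on low counts. RNA was sequenced from 12 libraries in 4 groups of 3, stated to be biological replicates: cells with a guide against Nop16 (sgNop16) after 24 h of CIT, cells with a non-targeting guide (sgCtr) after 24 h of CIT, sgNop16 cells without CIT, and sgCtr cells without CIT. All 4 groups had received the pX459 plasmid, which carries Cas9 and the guide, and 72 h of puromycin. CIT stood for recombinant human TGF-β at 1 ng/ml together with anti-CD40L at 1 μg/ml and recombinant mouse IL-4 at 20 ng/ml. The labels do not say whether the guide-treated cells were single clones, and every group came from the same lymphoma line. The series asks how NOP16, a nucleolar protein, bears on switching to IgA.

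A B cell joins variable and joining segments at a light chain locus and splices the product to a constant region, so that each antibody carries either κ or λ chains. The light chain pairs with the heavy chain in the endoplasmic reticulum. The J chain is added later, where IgM or IgA is assembled into polymers, and it is needed for the polymeric receptor that carries these antibodies across epithelia. Jchain is known as a gene of antibody-secreting cells that is held low in B cells by Pax5.

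Of the λ constant genes, Iglc2 and Iglc3 are near copies of each other and Iglc1 is less alike. For each, 150 bases from the start of the coding exon are shown because they bear on how the reads could be assigned. They come from GENCODE transcripts on GRCm38, all on the minus strand of chromosome 16, at chr16:19198701-19198850 (Iglc2), chr16:19065530-19065679 (Iglc3) and chr16:19061920-19062069 (Iglc1). Capitals mark bases that differ from Iglc2.
Iglc2: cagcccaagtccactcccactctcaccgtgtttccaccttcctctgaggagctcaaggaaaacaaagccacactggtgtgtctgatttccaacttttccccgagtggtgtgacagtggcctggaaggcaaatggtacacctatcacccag
Iglc3: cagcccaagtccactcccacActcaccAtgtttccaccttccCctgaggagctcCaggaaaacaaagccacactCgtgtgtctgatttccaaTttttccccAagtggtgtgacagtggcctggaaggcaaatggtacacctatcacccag
Iglc1: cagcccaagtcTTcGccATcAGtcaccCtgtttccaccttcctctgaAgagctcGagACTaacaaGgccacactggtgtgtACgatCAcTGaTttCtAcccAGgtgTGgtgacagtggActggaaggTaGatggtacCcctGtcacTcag
In these windows Iglc3 differed from Iglc2 at 7 bases and Iglc1 at 33. Over 314 aligned coding bases, Iglc2 and Iglc3 were 96.5% identical, differed at 11 bases and shared a run of 79 identical bases. Iglc1 and Iglc2 were 74.8% identical over 313 aligned bases, with no identical run longer than 19. Igkc and Iglc2 were 57.9% identical. The split of counts between Iglc2 and Iglc3 is therefore uncertain, while Iglc1 and Igkc share no long stretch with another member. Iglc3 also shares 93 annotated exon bases with 2010309G21Rik on the opposite strand, and Iglc2 shares 38 with Iglj2 on its own strand. The library kit keeps strand, but no source used here gives the strand setting of the counting.

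Library totals lay between 38866418 and 48615177 counts. Levels are CPM, counts scaled to library size with TMM factors, given as mean ± SD over 3 libraries. Igkc had 30240 to 41974 counts per library and Iglc2 11299 to 19279, while Iglc1, Iglc3 and Jchain had 135 to 1248, so the last 3 are measured with the larger error. Nop16, the targeted gene, had 64.6, 66.3 and 66.2 CPM in sgNop16 cells with CIT, against 78.8, 73.1 and 79.3 CPM in sgCtr cells with CIT. Without CIT it had 85.9, 82.4 and 88.6 CPM in sgNop16 cells, against 104, 108 and 107 CPM in sgCtr cells. Its mRNA was thus lower with the guide by 0.23 and 0.31 on the log2 scale (adjusted p = 0.00204 with CIT and 0.000109 without). In bulk RNA, fewer cells of a kind and less RNA per cell cannot be told apart.

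Marker genes of B cells and of other cells were read in the same libraries, and their part in the results on the 5 genes was not tested. All 8 B cell markers had a mean of at least 1 CPM, with sums of 2165 to 2195 CPM in sgNop16 and 2257 to 2273 CPM in sgCtr cells with CIT, and 2013 to 2034 CPM in sgNop16 and 1979.6 to 2038 CPM in sgCtr cells without CIT. With CIT, 3 of the 8 rose and 4 fell in sgNop16 cells, and 3 rose and 2 fell in sgCtr cells. The share of all genes tested that were called with CIT was 37.8% in sgNop16 cells and 41.7% in sgCtr cells. Cd22, an inhibitory receptor of B cells, fell to 3.41 CPM with CIT in sgNop16 cells, against 115 CPM without, and to 4.90 CPM in sgCtr cells, against 110.4 CPM without (adjusted p = 1.71e-07 and 2.35e-07). Ms4a1, which encodes CD20, had 192 CPM in sgNop16 and 278 CPM in sgCtr cells with CIT, a difference of -0.54 ± 0.03 (adjusted p = 2.06e-10).

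Of 6 plasma cell markers, 4 had a mean of at least 1 CPM. The sum of the 6 was at least 380.3 CPM in every sgNop16 library and 365 to 384 CPM in sgCtr cells with CIT, and 249 to 256 CPM in sgNop16 and 279.9 to 290.2 CPM in sgCtr cells without CIT. With CIT, 3 of the 4 that were tested rose and 1, Prdm1, fell with each guide, where 37.8% (sgNop16) and 41.7% (sgCtr) of all genes were called. Slamf7, a surface receptor, rose and had 3.78 CPM with CIT and 0.759 CPM without in sgNop16 cells, and 3.28 CPM with CIT and 1.11 CPM without in sgCtr cells. Sdc1 and Tnfrsf17 were at or below 0.158 CPM in every group mean. Of 6 macrophage markers, 2 had a mean of at least 1 CPM, and the sum of the 6 was 15.7 to 18.1 CPM in sgNop16 and 11.9 to 15.1 CPM in sgCtr cells with CIT, and 9.44 to 10.9 CPM in sgNop16 and 7.70 to 8.90 CPM in sgCtr cells without CIT. Csf1r, a receptor for a macrophage growth factor, had 7.75 CPM with CIT and 1.46 CPM without in sgNop16 cells, and 4.54 CPM with CIT and 0.811 CPM without in sgCtr cells (adjusted p = 6.77e-08 and 6.95e-08). Cd68 lay between 6.92 and 8.39 CPM in the group means. Adgre1 had 0.915 CPM in sgNop16 and 0.686 CPM in sgCtr cells with CIT, and 0.319 and 0 CPM without CIT. Itgam had 0.0548 CPM with CIT and 0.126 CPM without in sgNop16 cells. In sgCtr cells Itgam had 0 CPM with CIT, against 0.704 CPM without, and was called lower (adjusted p = 0.00169). Lyz2 and Marco were at 0 in all libraries. Of 7 T cell markers 2 had a mean of at least 1 CPM, Lck at 186 to 211 and Cd28 at 8.10 to 13.8 CPM, with Cd3e at or below 0.0905 CPM in the group means. The sum of the 7 was 197 to 202 CPM in sgNop16 and 208 to 219.6 CPM in sgCtr cells with CIT, and 218 to 226 CPM in sgNop16 and 196 to 213 CPM in sgCtr cells without CIT. Of 5 fibroblast markers 0 reached that mean, with a sum of at most 0.919 CPM in any library, and the sum of 5 erythroid markers was 1.15 to 2.43 CPM.

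**Figure D1:**
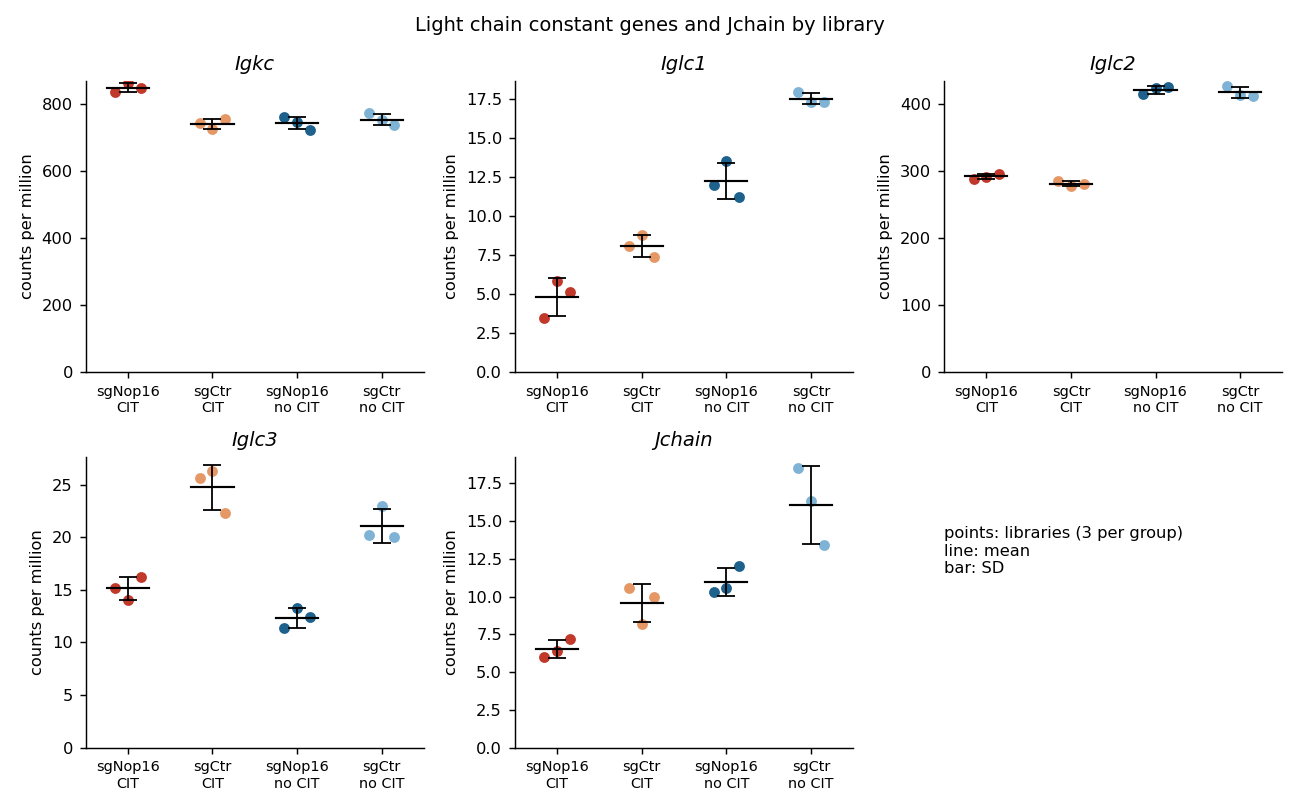
Level of each gene in every library, in CPM from 0, for the groups named below each panel. Points are libraries, the line is the mean and the bar the SD of 3 libraries. Igkc stands above the other groups in the 3 sgNop16 libraries with CIT (836 to 863 CPM), and Iglc3 lies below the sgCtr libraries of the same state in every sgNop16 library.

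Differences were tested for 16794 genes with edgeR's quasi-likelihood F test with Benjamini-Hochberg adjustment, and an adjusted p under 0.05 made a call. The tool and the adjustment are the same for every adjusted p below, and every difference is on the log2 scale with the SE of the model. Between guides without CIT, 0 of the 5 genes rose and 3 fell, with a median of -0.52 against 0.00 over all genes tested. In that comparison 4.06% of all genes tested were called, 2.14% higher and 1.92% lower. Between guides with CIT, 1 rose and 3 fell (median -0.55, against 0.01 over all genes), where 7.12% of all genes were called, 4.05% higher and 3.07% lower. With CIT against no CIT, 2 rose and 3 fell in sgNop16 cells (median -0.53, against 0.01), where 37.8% of all genes were called, 19.3% higher and 18.5% lower. In sgCtr cells 0 rose and 3 fell (median -0.57, against 0.02), where 41.7% of all genes were called, 20.6% higher and 21.1% lower. For the difference between the CIT responses, 1 of the 5 was called, higher, where 2.83% of all genes were called. The guide comparisons share libraries with the CIT comparisons, so these counts are not independent of each other.

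**Figure D2:**
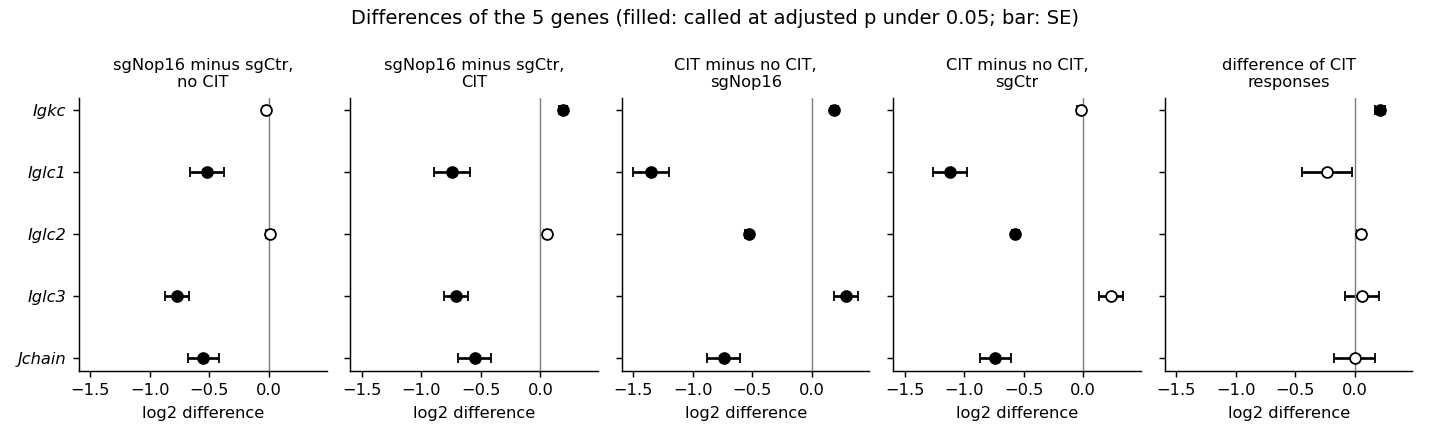
Log2 differences of the 5 genes in the 5 comparisons, with the SE of the model. Filled points were called at an adjusted p under 0.05. Iglc1, Iglc3 and Jchain lie below 0 in both guide comparisons, and Igkc is the filled point for the difference of CIT responses (0.21).

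Igkc, the constant region of the κ chain, was the most abundant of the 5 genes and the one whose CIT response differed between the guides. It had 836, 863 and 849 CPM in sgNop16 cells with CIT, against 745, 726 and 756 CPM in sgCtr cells with CIT. Without CIT it had 762, 748 and 724 CPM in sgNop16 cells, against 773, 753 and 738 CPM in sgCtr cells. The 3 sgNop16 libraries with CIT lay above all others, and the other 3 groups overlapped. Between guides with CIT, 24.1% of all genes tested did not overlap, and between states in sgNop16 cells 47.0% did not. With CIT, Igkc was 0.19 ± 0.03 higher in sgNop16 than in sgCtr cells, a 1.14-fold difference (adjusted p = 2.35e-05). Without CIT the guide difference was -0.02 ± 0.03 (adjusted p = 0.822), with a 95% interval of -0.07 to 0.03. With CIT, Igkc rose by 0.19 ± 0.03 in sgNop16 cells (adjusted p = 1.64e-06), against -0.02 ± 0.03 in sgCtr cells (adjusted p = 0.502). The CIT responses differed by 0.21 ± 0.04 (95% interval 0.14 to 0.28, adjusted p = 0.00128), a call that held whichever of the 12 libraries was left out.

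The joining segments beside Igkc and the λ variable genes were looked at in the same libraries. Igkj1, a κ joining segment, had 22.1 CPM in sgNop16 cells with CIT, against 19.0 CPM in sgCtr cells with CIT, and 19.4 against 19.3 CPM without CIT. Its guide difference with CIT was 0.22 ± 0.08 and its difference between CIT responses 0.21 ± 0.12, and neither passed the test (adjusted p = 0.130 and 0.479). Of 14 joining segments, λ variable genes and Iglc4, 10 were tested and 0 were called in any comparison by edgeR or DESeq2. Of all genes tested, edgeR called 4.06% between guides without CIT and 7.12% with CIT. It called 37.8% (sgNop16) and 41.7% (sgCtr) with CIT against no CIT, and 2.83% for the difference between the CIT responses. Over the 5 comparisons, 5 of the tests on these 10 genes had an unadjusted p under 0.05. Among the λ variable genes, Iglv3 averaged 0.730 CPM in sgNop16 and 1.37 CPM in sgCtr cells without CIT. Iglv1 reached at most 0.343 CPM and Iglv2 0.167 CPM in any library. Iglc4, listed beside the other λ constant genes, lay between 1.00 and 1.88 CPM in the group means.

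Iglc2 was the most abundant λ constant gene and fell with CIT with both guides. It had 288, 291 and 295 CPM in sgNop16 cells with CIT, against 285, 277 and 279.7 CPM in sgCtr cells with CIT. Without CIT it had 414, 423 and 424 CPM in sgNop16 cells, against 426, 413 and 411 CPM in sgCtr cells. Every library with CIT lay below every library without it, where 47.0% of all genes tested did not overlap between states in sgNop16 cells and 50.6% in sgCtr cells. The CIT response was -0.53 ± 0.03 in sgNop16 cells (adjusted p = 8.73e-14) and -0.57 ± 0.03 in sgCtr cells (adjusted p = 1.7e-14), a fall to 0.694 and 0.673 of the level without CIT. The responses differed by 0.05 ± 0.04 (95% interval -0.03 to 0.12, adjusted p = 0.681). The guide difference was 0.06 ± 0.03 with CIT (adjusted p = 0.238) and 0.01 ± 0.03 without (adjusted p = 0.922). With CIT the sgNop16 libraries lay just above the sgCtr libraries, a separation that 24.1% of all genes tested also showed.

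Iglc3, the near copy of Iglc2, was lower in sgNop16 cells with and without CIT, and without CIT by the largest amount among the 5 genes. Iglc3 had 15.2, 14.0 and 16.2 CPM in sgNop16 cells with CIT, against 25.6, 26.3 and 22.3 CPM in sgCtr cells with CIT. Without CIT it had 11.4, 13.3 and 12.4 CPM in sgNop16 cells, against 20.2, 23.0 and 20.0 CPM in sgCtr cells. All 6 sgNop16 libraries lay below all 6 sgCtr libraries. Between guides within a state, 24.1% of all genes tested did not overlap with CIT and 18.8% without. The guide difference was -0.71 ± 0.10 with CIT (adjusted p = 6.52e-05) and -0.77 ± 0.10 without (adjusted p = 3.66e-05), or 0.613 and 0.586 of the sgCtr level. Where Iglc2 and Iglc3 were counted as 1 gene, the guide difference was 0.01 with CIT (adjusted p = 0.930) and -0.02 without (adjusted p = 0.846), since the sum is mostly Iglc2.

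With CIT, Iglc3 was 0.29 ± 0.10 higher in sgNop16 cells (adjusted p = 0.0238), a call lost without sgNop16 library 1 or 3 of either state, with adjusted p up to 0.136. In sgCtr cells the CIT response was 0.23 ± 0.10 (adjusted p = 0.0644), and the responses differed by 0.06 ± 0.14 (adjusted p = 0.920). Without sgCtr library 2 of the cells left without CIT, or library 3 of those with CIT, the response in sgCtr cells was 0.30 and was called (adjusted p = 0.0369 and 0.0290). Iglc2 fell and Iglc3 rose with CIT in sgNop16 cells, on genes whose counts may have been shared out by the authors' counting. The part of that sharing in these values was not tested. The gene on the opposite strand, 2010309G21Rik, had 8.81, 11.99 and 10.2 CPM in sgNop16 cells with CIT, against 13.1, 10.6 and 13.8 CPM in sgCtr cells with CIT. Without CIT it had 11.99, 11.5 and 10.2 CPM in sgNop16 cells, against 16.8, 14.4 and 13.2 CPM in sgCtr cells. There the guides did not overlap, a separation that 18.8% of all genes tested also showed. Its guide difference was -0.28 with CIT and -0.40 without, the direction of Iglc3, and neither passed the test (adjusted p = 0.274 and 0.111).

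Iglc1 fell with CIT with both guides and was lower in sgNop16 cells with and without CIT. Iglc1 had 3.45, 5.80 and 5.10 CPM in sgNop16 cells with CIT, against 8.04, 8.75 and 7.33 CPM in sgCtr cells with CIT. Without CIT it had 11.95, 13.5 and 11.2 CPM in sgNop16 cells, against 17.9, 17.3 and 17.3 CPM in sgCtr cells. The 4 groups did not overlap. Between guides, 24.1% of all genes tested did not overlap with CIT and 18.8% without. Between states the share was 47.0% in sgNop16 cells and 50.6% in sgCtr cells. The CIT response was -1.35 ± 0.15 in sgNop16 cells (adjusted p = 1.11e-07) and -1.12 ± 0.14 in sgCtr cells (adjusted p = 9.34e-07), the largest falls among the 5 genes. The responses differed by -0.23 ± 0.21 (95% interval -0.63 to 0.18, adjusted p = 0.727). The guide difference was -0.74 ± 0.15 with CIT (adjusted p = 0.00275). Without CIT it was -0.52 ± 0.14 (adjusted p = 0.0416), and the call was lost whichever of these 6 libraries was left out, with adjusted p of 0.0510 to 0.169.

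The λ share of the light chain constant counts is the sum of the 3 λ genes over that sum plus Igkc. It does not depend on library size, but it is not adjusted for gene length and leaves out Iglc4. Beside Iglc2 at 280.4 to 420.1 CPM in the group means, Iglv3 had 0.730 to 1.37 CPM. Iglv1 reached at most 0.343 CPM and Iglv2 0.167 CPM in any library. Whether the λ constant counts come from joined λ chain RNA was not tested, so the share is not one of λ chains. The share of counts was 26.9, 26.5 and 27.2% in sgNop16 cells with CIT, against 29.9, 30.1 and 29.0% in sgCtr cells with CIT. Without CIT it was 36.5, 37.6 and 38.2% in sgNop16 cells, against 37.5, 37.6 and 37.8% in sgCtr cells. CIT moved the share by -10.6 percentage points in sgNop16 cells and by -7.95 in sgCtr cells, with no overlap of libraries. With CIT the guides differed by -2.84 percentage points, and without CIT by -0.233, where the libraries overlapped. The log2 ratio of Iglc3 to Iglc2 averaged -4.27 ± 0.10 in sgNop16 and -3.51 ± 0.13 in sgCtr cells with CIT, a difference of -0.76 (SD, n = 3). Without CIT it averaged -5.09 ± 0.10 in sgNop16 and -4.31 ± 0.12 in sgCtr cells, a difference of -0.78. Each of these ratios with separate libraries had an exact two-sided permutation p of 0.10, the smallest that 3 against 3 allows, and 0.119 after adjustment over 32 ratio tests, so that no ratio could pass 0.05.

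**Figure D3:**
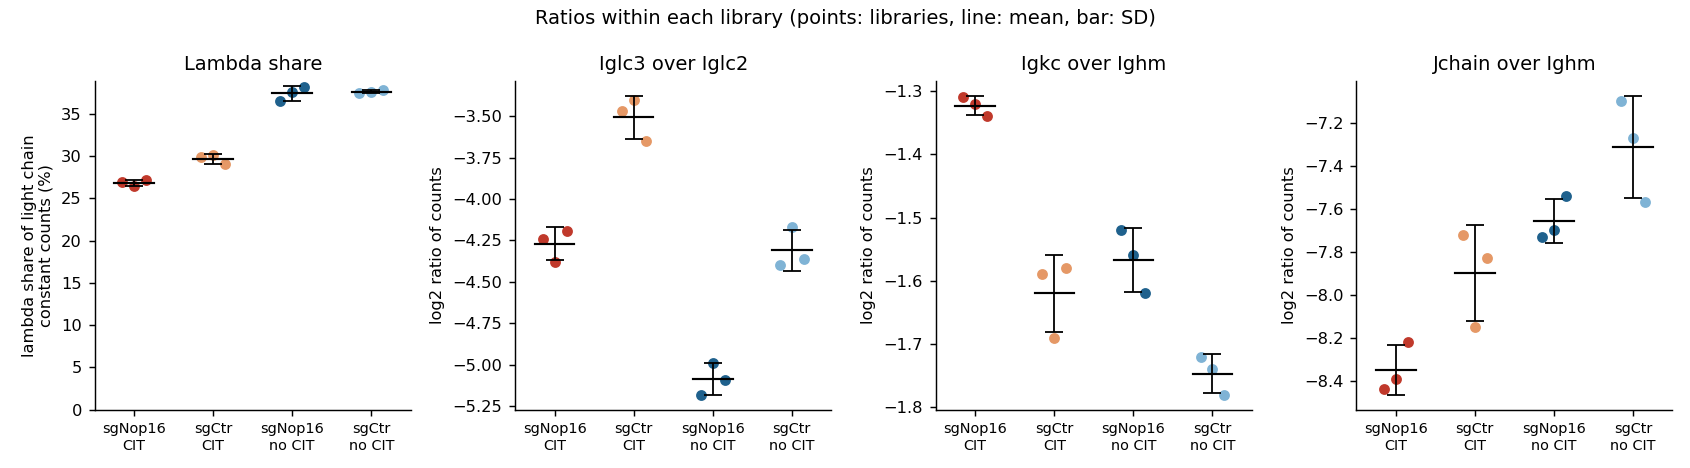
Ratios within each library: the λ share of light chain constant counts in percent, and log2 ratios of counts for Iglc3 over Iglc2, Igkc over Ighm and Jchain over Ighm. Points are libraries, the line is the mean and the bar the SD. The λ share is 26.5 to 27.2% in sgNop16 and 29.0 to 30.1% in sgCtr cells with CIT, below all libraries without CIT.

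Jchain was lower in sgNop16 cells with and without CIT and fell with CIT with both guides. Jchain had 5.999, 6.42 and 7.19 CPM in sgNop16 cells with CIT, against 10.6, 8.20 and 9.97 CPM in sgCtr cells with CIT. Without CIT it had 10.3, 10.6 and 12.01 CPM in sgNop16 cells, against 18.5, 16.3 and 13.4 CPM in sgCtr cells. Within each state the guides did not overlap, a separation that 24.1% of all genes tested also showed with CIT and 18.8% without. The sgNop16 cells without CIT overlapped with sgCtr cells with CIT. The guide difference was -0.55 ± 0.14 with CIT (adjusted p = 0.0148) and -0.55 ± 0.13 without (adjusted p = 0.0188), or 0.682 of the sgCtr level in each state. With CIT the call was lost without sgNop16 library 1 or 2 or sgCtr library 1 or 3, with adjusted p up to 0.0803. Without CIT it was lost without sgNop16 library 1 or 2 or sgCtr library 1 or 2, with adjusted p up to 0.134. The CIT response was -0.74 ± 0.14 in sgNop16 cells (adjusted p = 0.000126) and -0.74 ± 0.13 in sgCtr cells (adjusted p = 8.37e-05). The responses differed by -0.00 ± 0.17, with a 95% interval of -0.34 to 0.34 (adjusted p = 1.000).

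Set against Ighm, the heavy chain constant gene of IgM, Jchain kept its order among the groups. The log2 ratio of Jchain to Ighm averaged -8.35 ± 0.11 in sgNop16 and -7.90 ± 0.22 in sgCtr cells with CIT, and -7.66 ± 0.11 in sgNop16 and -7.31 ± 0.23 in sgCtr cells without CIT (SD, n = 3). The guide difference of this ratio was -0.45 with CIT and -0.34 without, and the libraries overlapped without CIT (exact permutation p = 0.200, two-sided). Igkc over Ighm averaged -1.32 ± 0.01 in sgNop16 and -1.62 ± 0.06 in sgCtr cells with CIT, and -1.57 ± 0.05 in sgNop16 and -1.74 ± 0.03 in sgCtr cells without CIT. Ighm itself was lower with the Nop16 guide, by 0.10 ± 0.02 with CIT (adjusted p = 0.00249) and 0.20 ± 0.02 without (adjusted p = 9.09e-07). Of 8 heavy chain constant genes, 7 rose and 1 fell with CIT in sgNop16 cells, and 7 rose and 1 fell in sgCtr cells, where 37.8% and 41.7% of all genes tested were called. Ighg2b, of IgG2b, had 166 CPM with CIT against 7.84 CPM without in sgNop16 cells, and Ighm was the gene that fell in each case, by 0.05 ± 0.02 in sgNop16 cells (adjusted p = 0.0482) and by 0.15 ± 0.02 in sgCtr cells (adjusted p = 1.07e-06). In sgNop16 cells 0 of the 8 were called lower with RLE size factors, library totals, no low-count filter, the filter of 5 CPM in 3 libraries, counts divided by 4 or a fit of the groups compared alone, and without library 3 of the cells without CIT or library 1 of those with CIT.

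Per kilobase of annotated exon, the members spanned more than the whole range between the heavy chains and the signalling partners of surface antibody. Igkc had 1597 ± 25.8 CPM per kilobase in sgNop16 cells with CIT, 1395 ± 29.2 in sgCtr cells with CIT, 1399 ± 35.8 in sgNop16 cells without CIT and 1419 ± 33.1 in sgCtr cells without CIT. Ighm followed with 1128 to 1341 per kilobase in the group means, then Iglc2 with 458 to 686 and Igha, of IgA, with 327 to 374. The signalling chains Cd79a and Cd79b had 238 to 275 and 133 to 160.1 per kilobase. Iglc3 had 27.3 to 54.7, Iglc1 10.5 to 38.6 and Jchain 2.60 to 6.37 per kilobase. In sgNop16 cells without CIT, Iglc3 (27.3 ± 2.12) and Iglc1 (27.0 ± 2.61) did not differ beyond their spread. With the length of the main transcript in place of all exons, Ighm stood above Igkc in sgCtr cells without CIT (1489 against 1419 per kilobase), so the order of these 2 depends on the length used.

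**Figure D4:**
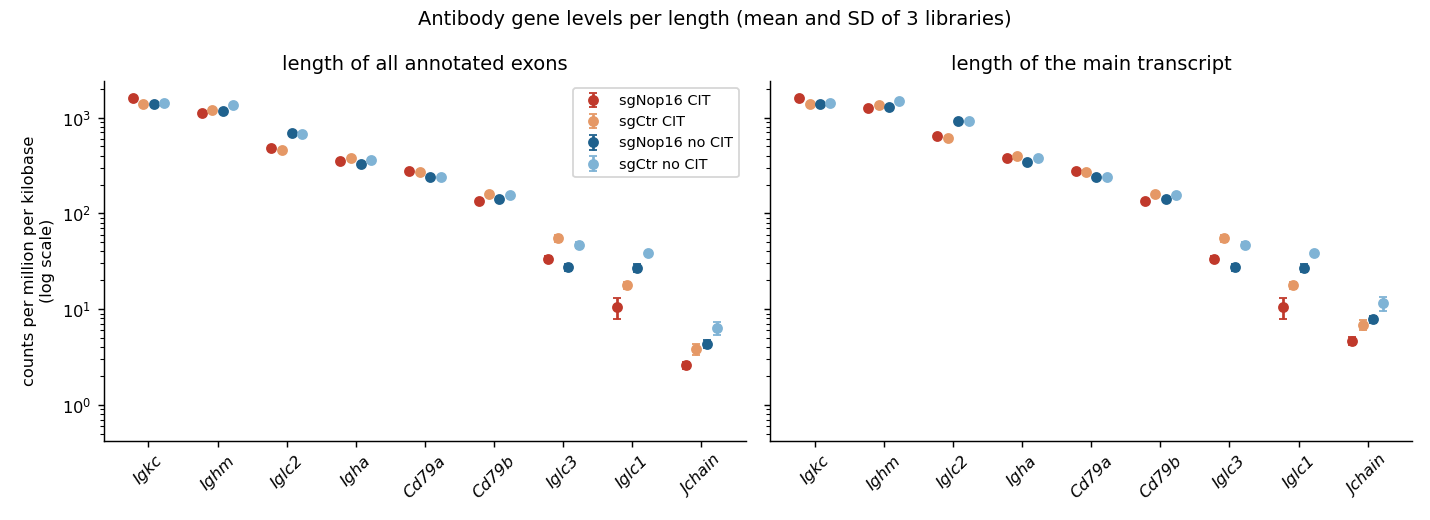
CPM per kilobase on a log axis for the 5 genes, 2 heavy chain constant genes and the signalling chains Cd79a and Cd79b, with the length of all annotated exons (left) or of the main transcript (right). Points are group means and bars the SD of 3 libraries. Jchain is lowest, at 2.60 to 6.37 per kilobase of annotated exon.

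Of the signalling chains of surface antibody, Cd79b was called between the guides and Cd79a was not. Cd79b was lower by 0.26 ± 0.03 in sgNop16 than in sgCtr cells with CIT (191 against 229 CPM, adjusted p = 6.09e-06). Without CIT it was lower by 0.12 ± 0.03 (203 against 221 CPM, adjusted p = 0.0225). Cd79a, its partner, had 401 CPM in sgNop16 and 398 CPM in sgCtr cells with CIT, and 348 and 347 CPM without CIT. Cd79a rose with CIT by 0.20 ± 0.03 with each guide (adjusted p = 4.4e-06 in sgNop16 and 5.74e-06 in sgCtr cells). Of 9 surrogate light chain and recombinase genes, 7 were in the table and 2 were tested. Neither was called in any comparison by edgeR, where 2.83% to 41.7% of all genes tested were called. Among the 10 tests, 1 had an unadjusted p under 0.05 and DESeq2 called 1. With the filter of 5 CPM in 3 libraries, which left 1 of these genes, edgeR called it higher with CIT in sgCtr cells. Without sgCtr library 1 of the cells without CIT, 1 of the 2 was called higher with CIT in sgCtr cells, and the bias-adjusted quasi-likelihood fit called 1 lower with CIT in sgNop16 cells. Rag1, of the recombinase that joins light chain segments, was at most 0.0968 CPM in any library. Vpreb3, which binds light chains inside the cell, had 69.3 CPM in sgNop16 and 68.4 CPM in sgCtr cells with CIT, and 63.9 and 62.8 CPM without CIT.

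Of 26 genes for antibody folding and polymer assembly, 8 were called higher and 0 lower for the difference between the CIT responses, the direction of the Igkc call. The median was 0.14, against 0.01 over all genes tested, of which 1.23% were called higher and 1.60% lower. Mzb1, an endoplasmic reticulum protein that aids the assembly of polymeric IgM, had 225 CPM in sgNop16 and 208 CPM in sgCtr cells with CIT, and 197 CPM in sgNop16 and 222 CPM in sgCtr cells without CIT. Its CIT response was 0.19 ± 0.03 in sgNop16 cells (adjusted p = 2.66e-05) and -0.09 ± 0.03 in sgCtr cells (adjusted p = 0.0202), a difference of 0.28 ± 0.04 (adjusted p = 0.000640). Herpud1, of the degradation of misfolded proteins, differed by 0.29 ± 0.07 (adjusted p = 0.0182), and Sdf2l1, a partner of the chaperone BiP, by 0.26 ± 0.06 (adjusted p = 0.0156). The other called genes, named after their values were seen, were Sel1l, Hspa5 (which encodes BiP), Hsp90b1, Calr and Pdia3, with differences between 0.12 and 0.22. Sel1l (-0.76 in sgNop16, -0.98 in sgCtr cells), Hsp90b1 (-0.17, -0.34) and Herpud1 (-0.12, -0.41) fell with CIT with both guides. Sdf2l1 and Hspa5 fell in sgCtr cells only, Pdia3 rose in sgNop16 cells only, and Calr rose with both guides. Without CIT, Mzb1 (-0.17) and Sel1l (-0.21) were called lower in sgNop16 than in sgCtr cells, while Igkc (-0.02) and the rest of the 8 were not called. The list had 5 called genes without sgNop16 library 2 or sgCtr library 1 of the cells without CIT, and 5 to 9 over all alternatives, none of them lower.

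**Figure D5:**
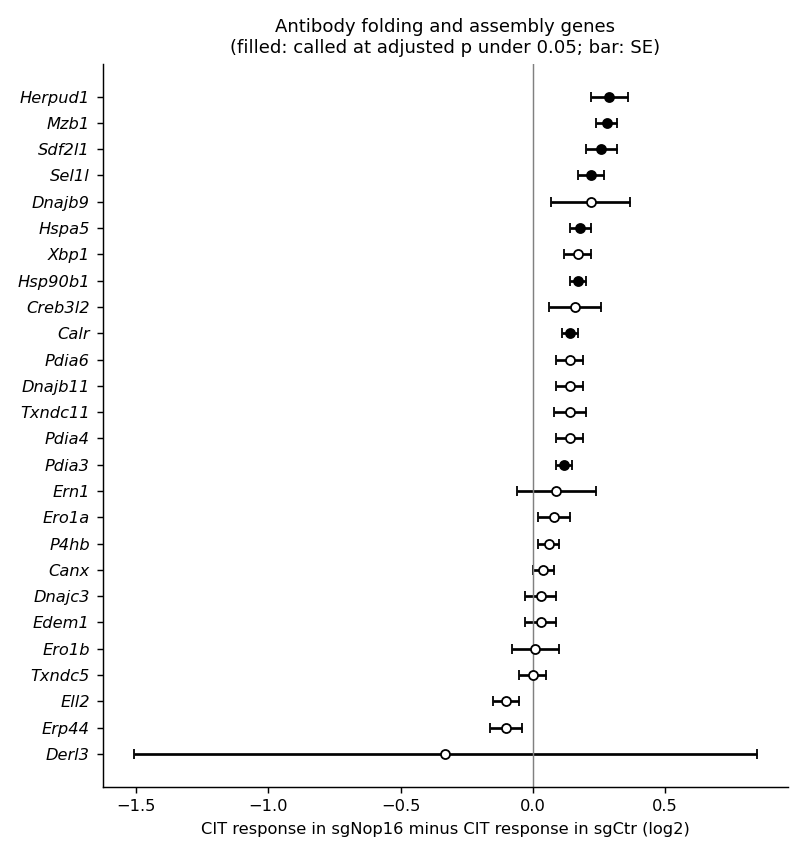
CIT response in sgNop16 cells minus CIT response in sgCtr cells on the log2 scale for 26 genes of antibody folding and assembly, with the SE of the model. Filled points, 8 of them, were called at an adjusted p under 0.05 and all lie above 0, with Herpud1 at 0.29 and Mzb1 at 0.28.

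Between the guides, the same list had 7 genes higher and 2 lower with CIT, where 4.05% of all genes tested were called higher and 3.07% lower. In cells without CIT, 0 were higher and 5 lower, where 2.14% of all genes were called higher and 1.92% lower. With CIT, Sdf2l1 was 0.28 higher (adjusted p = 0.000126), Hsp90b1, an abundant chaperone of the endoplasmic reticulum, 0.18 higher (adjusted p = 3.35e-05) and Calr, the lectin chaperone calreticulin, 0.15 higher (adjusted p = 7.93e-05) in sgNop16 than in sgCtr cells. Creb3l2 and Xbp1, transcription factors of the secretory pathway, were lower in both states. Xbp1 had 158 CPM in sgNop16 and 173 CPM in sgCtr cells with CIT, and 118 CPM in sgNop16 and 145 CPM in sgCtr cells without CIT (adjusted p = 0.0212 and 6.52e-06). With CIT against no CIT, 12 of the 26 rose and 9 fell in sgNop16 cells, and 8 rose and 13 fell in sgCtr cells, where 37.8% and 41.7% of all genes tested were called. Sel1l, of the degradation of misfolded proteins, fell by 0.76 in sgNop16 cells and by 0.98 in sgCtr cells (adjusted p = 1.08e-14 and 8.7e-17).

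Of 21 regulators of light chain genes, 2 were higher and 8 lower in sgNop16 than in sgCtr cells with CIT, where 4.05% of all genes tested were called higher and 3.07% lower. Without CIT, 1 was higher and 2 were lower, where 2.14% of all genes were called higher and 1.92% lower. Irf4, which acts at the light chain enhancers, had 221 CPM in sgNop16 and 196 CPM in sgCtr cells with CIT, a difference of 0.18 ± 0.04 (adjusted p = 0.00447), and 128 and 129 CPM without CIT. Rel, an NF-κB subunit, had 226 CPM in sgNop16 and 293 CPM in sgCtr cells with CIT, a difference of -0.38 ± 0.03 (adjusted p = 7.88e-08). Id3, which blocks E proteins, had 51.1 CPM in sgNop16 and 69.7 CPM in sgCtr cells with CIT (adjusted p = 1.59e-05). Irf8, a relative of Irf4, was lower by 0.32 with CIT (adjusted p = 1.74e-05) and higher by 0.20 without CIT (adjusted p = 0.00505). The CIT responses of 7 of the 21 differed between the guides, 1 higher and 6 lower. For that difference, 1.23% of all genes tested were called higher and 1.60% lower. Id2 differed by 0.51 and Irf8 by -0.52 (adjusted p = 0.0199 and 8.25e-06). With CIT against no CIT, 12 rose and 5 fell in sgNop16 cells, and 13 rose and 4 fell in sgCtr cells, where 37.8% and 41.7% of all genes tested were called. Ikzf3 rose by 1.44 in sgNop16 and by 1.54 in sgCtr cells.

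Of 15 regulators of the Jchain gene, 1 was higher and 1 lower in sgNop16 than in sgCtr cells with CIT, namely Irf4 and Xbp1, where 7.12% of all genes tested were called. Without CIT 0 were higher and 2 lower, namely Xbp1 and Pou2af1, where 4.06% of all genes were called. Pou2af1, a coactivator of octamer-binding factors, had 217 CPM in sgNop16 and 239 CPM in sgCtr cells without CIT (adjusted p = 0.00968). Prdm1, which encodes the plasma cell factor Blimp-1, fell with CIT to 1.61 CPM in sgNop16 cells, against 5.69 CPM without, and to 1.95 CPM in sgCtr cells, against 9.34 CPM without (adjusted p = 1.08e-06 and 2.67e-08). Its guide difference without CIT was -0.72 ± 0.22 and did not pass the test (adjusted p = 0.0689). Stat5a and Stat5b, which act downstream of cytokine receptors, rose with CIT by 2.95 and 1.78 in sgNop16 cells and by 2.95 and 1.75 in sgCtr cells. Pax5 was not called in any comparison and had 236 CPM in sgNop16 and 247 CPM in sgCtr cells with CIT, and 237 and 240.1 CPM without CIT. For the difference between the CIT responses, 0 of the 15 were called by edgeR, where 2.83% of all genes tested were called. Of the 15, 4 had an unadjusted p under 0.05, and DESeq2 called 3. With edgeR, 1 was called higher with the filter of 5 CPM in 3 libraries, with counts divided by 4 or without sgCtr library 2 of the cells with CIT. Another setting, the fit without robust weights, called 1 lower, as did leaving out sgCtr library 3 of the cells with CIT.

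The 5 genes did not vary together over the 12 libraries. Pearson's r of log2 CPM was 0.92 between Iglc1 and Jchain, 0.83 between Iglc1 and Iglc2, and 0.75 between Iglc2 and Jchain. It was -0.68 between Igkc and Iglc1, -0.63 between Igkc and Jchain, and 0.13 between Iglc1 and Iglc3. These values describe 12 libraries in 4 groups that share their controls and follow mostly the group means. Among 9464 genes with a mean of at least 5 CPM, those most like Igkc were Top3b and Smarcc1 (r = 0.92 each), Dnajb11 (0.89), Fam216a and Cntnap1 (0.88 each). Those most like Iglc2 were Il10, Ppip5k2, Plek, Camk4 and Adap1 (r = 1.00 each when rounded), and those most like Iglc1 were Cmtm8, Mir17hg, Avil (0.98 each), Arl5a and Ptpn1 (0.97 each). Those most like Iglc3 were Scd2 (0.96), Zfp831 (0.95), Csk, Grk2 (0.94 each) and Mob1a (0.93). Those most like Jchain were Ankrd50 and Nop16 (0.96 each), Jade1 and Cmtm8 (0.95 each) and Prkcd (0.94).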

How the data were processed

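RNA from 12 libraries was measured. Per the labels' protocols, total RNA went into a directional library kit. The submitters' processing notes name HISAT2 2.2.1, StringTie 2.2.1 and GRCm39, with no role for each, and no source used here gives the annotation release or strand setting. The authors deposited estimated counts per Ensembl gene as whole numbers, not scaled to library size. Values at 4 are in excess, so 1 fragment may be worth about 4 counts, and dividing by 4 was tried. Counts were used as deposited. Symbols, exon lengths and sequences come from a GRCm38 annotation, which gave a symbol for 51948 of 56941 genes.

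Genes were filtered with filterByExpr in edgeR 4.0.16 (R 4.3.3) and tested in a model of all 12 libraries with a mean per group, TMM factors (0.985 to 1.013) and robust quasi-likelihood estimates (common dispersion 0.015). Robust weights followed the earlier processing of these data, and the fit without them is an added alternative, chosen after seeing the data, as are the bias-adjusted fit and the main transcript length. DESeq2 1.42.0 was another alternative. The test was first run on simulated counts. The 5 genes, the 8 pathway lists and the marker lists were chosen with earlier results of these data known. Genes named from a list were, in each comparison, up to 3 called genes of largest change in each direction, and with no call the 2 lowest p. Likeness used log2 CPM with a prior count of 2 and left out gene model names. Intervals and SE cover these libraries only. The 95% intervals are a normal approximation from the SE, so they can be narrower than the F test would give.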

Additional observations from a re-analysis of the deposited data

Results flagged for a closer look

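Igkc stood out because its CIT response differed between the guides by a test of the difference itself. The response was 0.21 higher on the log2 scale in sgNop16 than in sgCtr cells (SE 0.04, edgeR quasi-likelihood test, adjusted p = 0.00128). Igkc averaged 849 ± 13.7 CPM in sgNop16 and 742 ± 15.5 CPM in sgCtr cells with CIT, and 744 ± 19.0 CPM in sgNop16 and 755 ± 17.6 CPM in sgCtr cells without CIT (SD, n = 3). All 3 sgNop16 libraries with CIT were above all 9 others. Between guides with CIT alone, 24.1% of all genes tested did not overlap.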

How the results depend on the processing

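Over 25 differences of the 5 genes and 475 alternative values, 446 kept their direction and their side of the threshold, 20 lost a call, 6 gained one and 3 turned round. The 3 that turned round came from counting Iglc2 and Iglc3 as 1 gene, where the Iglc3 differences became 0.01 between guides with CIT and -0.49 (sgNop16) and -0.52 (sgCtr) with CIT against no CIT. By the construction of that sum it follows Iglc2, and the guide difference without CIT became -0.02 and was no longer called. Without robust weights, Iglc1 between guides without CIT was -0.52 with an adjusted p of 0.0728, above the threshold. The CIT response of Iglc3 in sgCtr cells passed the test with library totals in place of TMM (0.27), with a filter of 5 CPM in 3 libraries (0.25), with counts divided by 4 (0.24) and with the bias-adjusted fit (0.23), and the cause was not tested. Leaving out each library gave -0.59 to -0.46 for Iglc1 between guides without CIT, and -0.66 to -0.44 without CIT and -0.65 to -0.48 with CIT for Jchain between guides. For Iglc3 it gave 0.22 to 0.35 for the CIT response in sgNop16 and 0.18 to 0.30 in sgCtr cells. Fits without 1 library called 777 to 899 genes in all between guides with CIT, in place of 1195. For the difference between CIT responses they called 305 to 389, in place of 475. DESeq2 called 767 for that difference. With library totals, the calls that were higher made up 65.8% between guides without CIT and 29.4% for the difference between CIT responses, in place of 52.8% and 43.6%. With the main transcript length, mean levels per kilobase were 769 for Iglc2, 7.74 for Jchain, 1345 for Ighm and 372 for Igha, against 576, 4.28, 1211 and 354. Libraries with the same replicate number did not deviate together. The correlations of their deviations had medians of 0.0108, -0.0504 and -0.0922 for the 3 numbers, and 4 of 12 libraries correlated best with their own number. With a replicate block, no call of the 5 genes changed, and 617 genes were called between guides without CIT, in place of 682. Counts as low as 135 (Iglc1), 529 (Iglc3) and 235 (Jchain) in a library limit these genes.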

Other observations

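The receptors and partners of antibody that carries the J chain were at low levels and 2 of them fell with CIT. Of 4 listed genes 3 were tested, and 0 rose and 2 fell with CIT in each guide. With CIT, 37.8% of all genes tested were called in sgNop16 cells, 18.5% of all being lower. In sgCtr cells 41.7% were called, 21.1% of all being lower. Fcmr, a receptor for IgM, had 1.07 CPM with CIT and 2.51 CPM without in sgNop16 cells, and 1.38 CPM with CIT and 2.66 CPM without in sgCtr cells (adjusted p = 0.00461 and 0.0206). Fcamr, a receptor for IgA and IgM, had 4.58 CPM with CIT and 7.04 CPM without in sgNop16 cells, and 5.16 CPM with CIT and 8.76 CPM without in sgCtr cells (adjusted p = 0.00239 and 0.000253). Pigr, the polymeric receptor itself, stayed between 0.856 and 1.24 CPM in the group means and was not called in any comparison. Cd5l, a protein that binds polymeric IgM, was at most 0.203 CPM in any library and was not tested. No guide difference was called in the 3 tested genes, with or without CIT, by edgeR's quasi-likelihood test or by DESeq2, and 1 had an unadjusted p under 0.05. Between guides, edgeR called 7.12% of all genes tested with CIT and 4.06% without.

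Ighg3, the heavy chain constant gene of IgG3, was lower in sgNop16 cells with and without CIT, as Iglc3, Iglc1 and Jchain were. It had 24.6 CPM in sgNop16 and 37.9 CPM in sgCtr cells with CIT, a difference of -0.63 ± 0.11 (adjusted p = 0.000532), and 5.96 and 10.9 CPM without CIT, a difference of -0.87 ± 0.12 (adjusted p = 5.05e-05). Of the 8 heavy chain constant genes, 1 was higher and 2 lower between guides with CIT, where 4.05% of all genes tested were called higher and 3.07% lower. Without CIT 0 were higher and 3 lower, where 2.14% of all genes were called higher and 1.92% lower. Ighg2b went the other way with CIT, with 166 CPM in sgNop16 and 130 CPM in sgCtr cells (0.35 ± 0.07, adjusted p = 0.00333).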
